A study of Mus musculus with 3 samples.

Results

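The 10 genes described here mark resident tissue macrophages and their uptake of ligands, debris and dying cells, and were followed through single cells sorted from mouse hearts. They are Folr2, Timd4, Lyve1, Cd163, Mrc1, Vsig4, F13a1, Cbr2, Retnla and Fcna, 10 of the 17126 genes that the deposited tables hold between them. The genes were taken by name. The cells they were read in, called macrophage cells here, were set by 5 other genes: C1qa, C1qb and C1qc (the chains of complement C1q), Csf1r (the receptor for the growth factor CSF1) and Cd68 (a lysosomal glycoprotein). A cell counted as a macrophage when it held a UMI (unique molecular identifier, 1 captured transcript) of at least 4 of those 5 genes and at least 10 of their UMIs per 10000.

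The cells were interstitial cells of adult mouse hearts, released with collagenase II and spun at low speed to remove cardiomyocytes, then sorted by flow cytometry with antibodies to Lin28 and cKit at the cell surface. Lin28 is an RNA-binding protein that normally acts inside the cell, while cKit is a growth factor receptor tyrosine kinase of progenitor and mast cells. The 3 groups, each with 1 droplet-based 3' single-cell library, were cells with neither protein at the surface (Lin28- cKit-), cells with Lin28 alone (Lin28+ cKit-) and cells with both (Lin28+ cKit+). Strain, age and number of animals are not stated in the labels used here. The rule found 13 macrophage cells among 3976 in the Lin28- cKit- library, 291 of 681 in the Lin28+ cKit- library and 626 of 1176 in the Lin28+ cKit+ library, 930 of 5833 in all. No group has a replicate library, so no test was made, and the 95% intervals cover counting error alone.

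Macrophages that live in the heart wall clear dying cells, take up ligands and iron-bearing proteins and shed material, and help keep vessels and lymphatics in order. A much described subset carries Folr2, Lyve1, Timd4 and Mrc1 and little MHC class II, and is maintained largely by its own division, while cells with high MHC class II and Ccr2 are replenished from blood monocytes. The genes differ in role. Folr2 is a folate receptor held in the membrane by a lipid anchor. Timd4 binds phosphatidylserine on dying cells, Mrc1 (the mannose receptor, CD206) and Lyve1 bind sugar chains including hyaluronan in the case of Lyve1, and Cd163 takes up haemoglobin bound to haptoglobin. Vsig4 is a complement receptor for C3 fragments, Fcna is a secreted ficolin that recognises microbial sugars, F13a1 is the catalytic chain of coagulation factor XIII, Cbr2 is a carbonyl reductase, and Retnla (RELMα, Fizz1) is a small secreted protein induced by type 2 cytokines.

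Promoter sequences are shown for 4 of the genes, Folr2, Timd4, Fcna and Retnla. They are the 4 with a match to the MAF motif described below, so that match does not mark a separately chosen group. RefSeq promoter windows (build GRCm38.p6) were found for 9 of the 10 genes. The 250 bases before the start site are printed 5′ to 3′ on the gene's strand, with matches to any of 5 motifs in capitals. Both strands were searched. For factors of the MAF family, which help set the resident macrophage state, the motif was TGCTGA. The core of sites for PU.1, a factor that all macrophages need, was searched for as GAGGAA. For C/EBP factors the motif was TTGCNNAA, and the TATA box, which positions the start of transcription, was searched for as TATAAA. The last motif was the STAT6 palindrome with a spacer of 4 bases. No 2 matches overlapped in the 4 windows. Folr2 is at chr7:101845332-101845581, minus strand, the nearer to the gene's end of its 2 windows. Timd4 is at chr11:46810549-46810798, plus strand. Fcna is at chr2:25627975-25628224, minus strand. Retnla is at chr16:48842359-48842608, plus strand.
Folr2: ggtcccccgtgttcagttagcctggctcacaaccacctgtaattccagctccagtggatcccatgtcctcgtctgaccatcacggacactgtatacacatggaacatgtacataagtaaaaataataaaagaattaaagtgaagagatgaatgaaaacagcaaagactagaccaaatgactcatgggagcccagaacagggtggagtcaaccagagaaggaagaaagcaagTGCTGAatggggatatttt
Timd4: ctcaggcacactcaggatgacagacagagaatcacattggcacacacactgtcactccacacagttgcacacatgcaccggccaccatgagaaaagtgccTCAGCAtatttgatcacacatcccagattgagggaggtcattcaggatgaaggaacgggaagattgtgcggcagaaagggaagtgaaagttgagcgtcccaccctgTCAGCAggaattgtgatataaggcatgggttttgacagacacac
Fcna: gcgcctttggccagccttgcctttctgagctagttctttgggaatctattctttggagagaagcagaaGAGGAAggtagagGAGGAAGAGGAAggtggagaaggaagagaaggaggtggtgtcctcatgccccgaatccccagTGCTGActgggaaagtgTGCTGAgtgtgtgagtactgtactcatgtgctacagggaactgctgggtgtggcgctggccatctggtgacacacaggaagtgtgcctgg
Retnla: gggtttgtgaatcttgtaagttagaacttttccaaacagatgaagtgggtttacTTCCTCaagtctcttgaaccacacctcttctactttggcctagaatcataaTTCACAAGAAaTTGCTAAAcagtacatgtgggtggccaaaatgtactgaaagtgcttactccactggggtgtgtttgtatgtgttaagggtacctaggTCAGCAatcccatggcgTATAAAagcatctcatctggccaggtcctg

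The MAF site was found in these 4 genes and in none of the other 5 with a window, against 16.1% of 32841 promoter windows of the same length. A gene was counted with a match in any of its windows, 11 for the 9 genes, while the percentages are of single windows. The PU.1 core was found in 6 of the 9 genes, Cbr2, F13a1, Fcna, Mrc1, Retnla and Vsig4, against 23.3% of all windows. Retnla was the only one of the 9 with a C/EBP, a STAT6 or a TATA match, which 9.57%, 5.85% and 12.4% of all windows hold. The TATA match of Retnla lies 30 to 25 bases before the start. A match is a run of letters and does not show that a factor binds there. The genes are spread over the genome (GENCODE vM21, mm10), with Folr2 at chr7:101839988-101857194, Timd4 at chr11:46810800-46844332, Lyve1 at chr7:110850607-110863239, Cd163 at chr6:124304656-124330527 and Mrc1 at chr2:14229392-14332057. Vsig4 lies at chrX:96247203-96293438, F13a1 at chr13:36867178-37050244, Cbr2 at chr11:120729489-120732114, Retnla at chr16:48842551-48844461 and Fcna at chr2:25624666-25628030.

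The libraries held 34031955, 7401174 and 10400648 UMIs, with a median of 8630, 9628 and 8069 UMIs per cell, in the order Lin28- cKit-, Lin28+ cKit- and Lin28+ cKit+. Macrophage cells were deeper in the Lin28+ cKit- library (median 13513 UMIs) than in the Lin28+ cKit+ library (9838), and those of the Lin28- cKit- library had a median of 6464. The 5 defining genes summed to 8510, 12242 and 12743 CPM (UMIs scaled to a common total, counts per 1000000) in macrophage cells. Markers of other cells were low there in the Lin28+ libraries: endothelial markers summed to 75.6 and 105 CPM, fibroblast markers to 11.6 and 6.75, cardiomyocyte markers to 185 and 203, and the 5 mast cell markers were at 0. In the Lin28+ libraries 7 and 9 macrophage cells also met the endothelial rule and 8 and 14 the cardiomyocyte rule. The Lin28- cKit- and Lin28+ cKit+ libraries shared 8 cell barcodes, the Lin28+ libraries shared 1 and the remaining pair 0. The shared barcodes were shallow, with 509 to 891 UMIs in each library. One of the 13 and 1 of the 626 macrophage cells carried a shared barcode.

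In the Lin28+ libraries nearly all UMIs of these genes lay in macrophage cells. For 9 of the 10 genes 95.1% to 98.6% of the library's UMIs were there in either library. The exception was Lyve1, with 85.0% and 87.8%. Endothelial cells, which should lack most of the genes, gave the level of free RNA. Folr2 stood in endothelial cells at 2.18% of its macrophage level in the Lin28+ cKit- library and 5.09% in the Lin28+ cKit+ library, beside 1.57% and 2.73% for C1qa. Retnla had 5.12% and 8.77%, Cbr2 4.82% and 4.90%, and Lyve1 3.30% and 6.39%. These 3 genes were above the C1qa share beyond counting error in both libraries, and Folr2 was so in the Lin28+ cKit+ library. The defining gene Cd68 was so in the Lin28+ cKit- library, at 3.42% (2.25 to 4.99). Cells meeting the macrophage rule were not counted as endothelial, which can hold down the share of C1qa, a gene of that rule.

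Folr2, the folate receptor, stood at 517 CPM (496 to 538) in macrophage cells of the Lin28+ cKit- library and at 363 CPM (349 to 377) in those of the Lin28+ cKit+ library, a ratio of 0.702 (0.664 to 0.743). In the Lin28- cKit- library the whole table of 3976 cells held 4 Folr2 UMIs, all of them in 3 cells whose barcodes were shared with the Lin28+ cKit+ library, and 0 outside shared barcodes, where 3 UMIs, taken as the limit that a count of 0 allows, would be 0.0882 CPM. Folr2 was thus high in both Lin28+ libraries and, without the shared barcodes, undetected in the Lin28- cKit- cells.

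Timd4, the phosphatidylserine receptor, stood at 111 CPM (102 to 121) and 68.4 CPM (62.4 to 74.7) in the macrophage cells of the Lin28+ cKit- and Lin28+ cKit+ libraries, a ratio of 0.615 (0.542 to 0.697). Mrc1, the mannose receptor, had 1102 CPM (1072 to 1133) and 888 CPM (867 to 911), a ratio of 0.806 (0.777 to 0.837). The difference was the smallest of the 10 for Mrc1, and it was detected in 97.3% and 96.6% of macrophage cells before any correction for depth. Lyve1, the hyaluronan receptor, had 389 CPM (371 to 408) and 258 CPM (246 to 270), a ratio of 0.662 (0.620 to 0.707). Cd163, the receptor for haptoglobin-bound haemoglobin, had 187 CPM (175 to 200) and 115 CPM (107 to 123), a ratio of 0.614 (0.558 to 0.677). All 4 receptors were higher in the cKit-negative of the Lin28+ libraries, and none of their intervals overlapped.

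Vsig4, the complement receptor, had 73.0 CPM (65.4 to 81.2) in the Lin28+ cKit- and 39.8 CPM (35.3 to 44.7) in the Lin28+ cKit+ macrophage cells, a ratio of 0.545 (0.464 to 0.641). Fcna, the ficolin, had 97.2 CPM (88.4 to 107) and 51.2 CPM (46.1 to 56.7), a ratio of 0.527 (0.457 to 0.606). F13a1, the factor XIII chain, had 1107 CPM (1077 to 1138) and 710 CPM (690 to 730), a ratio of 0.641 (0.617 to 0.667). The secreted proteins and the complement receptor followed the same direction as the other receptors. Cbr2, the reductase, had 500 CPM (479 to 521) and 262 CPM (251 to 275), a ratio of 0.525 (0.494 to 0.558). Retnla had 815 CPM (789 to 841) and 380 CPM (366 to 395), a ratio of 0.466 (0.444 to 0.490), the lowest of the 10.

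**Figure D1:**
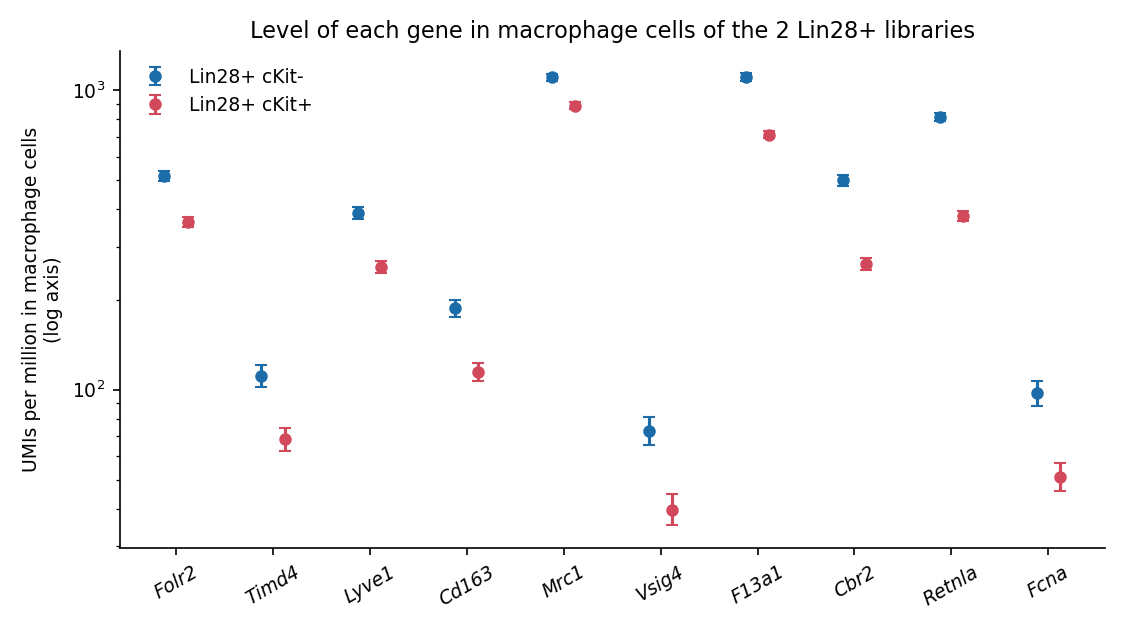
Level of each gene, in CPM on a log axis, in macrophage cells of the Lin28+ cKit- library (blue, 291 cells) and the Lin28+ cKit+ library (red, 626 cells), with exact Poisson 95% intervals for counting error. For each gene the blue point lies above the red one, from 1102 against 888 for Mrc1 to 815 against 380 for Retnla. Levels of different genes are not comparable by length.

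All 10 genes were lower in the Lin28+ cKit+ than in the Lin28+ cKit- macrophage cells, and 8 of them by at least 1.5-fold, against 5.10% of the 9066 genes with at least 50 UMIs in the pair. None was higher by that fold, which 2.12% of the genes were. Folr2 and Mrc1 did not reach it. The median log2 ratio of the 10 was -0.70, against -0.08 over the 9066 genes, of which 62.5% were below 1. The genes were chosen with earlier results of these data known, so this count is a description. The difference varied with the depth of the cells. Among cells with at least 10000 UMIs (221 and 301) all 10 ratios were below 1 and 6 past the fold, with a median log2 ratio of -0.65. Lyve1, at 0.758, and F13a1, at 0.705, did not reach it there. Among cells with 5000 to 10000 UMIs (42 and 279) the median was -0.22 and 2 genes, Lyve1 at 0.505 and Cbr2 at 0.610, were past the fold.

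Retnla reversed in the 5000 to 10000 band. It stood there at 73.4 CPM (48.0 to 108, from 26 UMIs) in the Lin28+ cKit- and 276 CPM (254 to 298) in the Lin28+ cKit+ cells, a ratio of 3.75. Cd163 was level in that band, with a ratio of 1.03. Under 5000 UMIs, with 28 and 46 cells, Timd4 had a ratio of 2.24, from 1 and 6 UMIs, and the 9 other genes were below 1. Macrophage depth and group differ together in these libraries, and the part of depth in the lower levels was not tested.

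**Figure D2:**
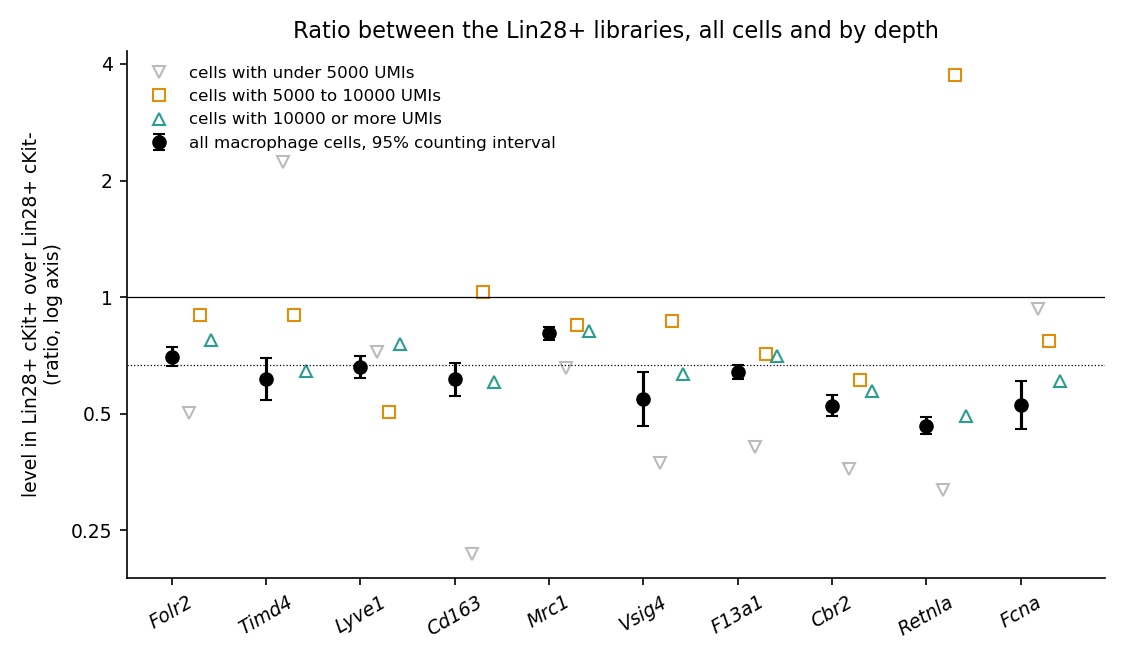
Ratio of each gene's level in Lin28+ cKit+ over Lin28+ cKit- macrophage cells, on a log axis, for all macrophage cells (black, 95% counting interval) and for cells of 3 depth bands (open symbols). The solid line marks equal levels and the dotted line a 1.5-fold lower level. All black points lie below 1, from 0.466 for Retnla to 0.806 for Mrc1, and the highest open symbol is Retnla at 3.75 in cells with 5000 to 10000 UMIs.

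Shares of cells pointed the same way once cells were thinned to a common number of UMIs. Macrophage cells were thinned to 2000 UMIs each, which left 273 and 615 cells of the Lin28+ libraries and left out 18 and 11 shallower ones. Thinning does not equalise the mix of cells: 42 of 291 and 279 of 626 had 5000 to 10000 UMIs before it. Folr2 stood at 285 and 256 CPM in that band and at 535 and 416 CPM from 10000 UMIs. The part of this mix in the shares and in the genes per cell was not tested. Folr2 then had a UMI in 45.8% (39.8 to 51.9) of Lin28+ cKit- and 38.2% (34.4 to 42.2) of Lin28+ cKit+ macrophage cells. Without thinning the shares were 75.3% and 62.1%. Endothelial cells thinned alike had a Folr2 UMI in 2.34% and 3.74%, with median depths before thinning of 7871 and 5721 UMIs against 13513 and 9838 in macrophage cells. Cbr2 differed most in percentage points, with 55.7% (49.6 to 61.7) and 37.6% (33.7 to 41.5), beside 5.61% and 2.67% of endothelial cells. Lyve1 had 35.2% (29.5 to 41.1) and 23.6% (20.3 to 27.1).

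Mrc1 was the most widely detected of the genes after thinning, in 83.5% (78.6 to 87.7) and 74.5% (70.8 to 77.9) of cells, followed by F13a1 in 68.9% (63.0 to 74.3) and 56.1% (52.1 to 60.1). Cd163 was found in 24.5% (19.6 to 30.1) and 15.4% (12.7 to 18.5). The intervals of the libraries did not meet for Cbr2, Lyve1, Mrc1, F13a1 and Cd163, and they overlapped for Folr2 and the other 4 genes. Timd4 was in 16.1% and 12.2% of cells, Retnla in 20.9% and 15.8%, Fcna in 10.99% and 6.83%, and Vsig4 in 5.86% and 3.90%. For Retnla 7.48% and 7.75% of endothelial cells also held a UMI.

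Single macrophage cells carried several of the genes at once. At 2000 UMIs per cell the median cell of the Lin28+ cKit- library held 4 of the 10 genes (quartiles 2 and 5) and that of the Lin28+ cKit+ library 3 (quartiles 1 and 4). Cells with 5 or more of the genes made up 35.5% and 18.5%, and cells with 0 or 1 made up 15.0% and 27.3%. No cell held more than 8. The Lin28+ cKit- cells were thus shifted towards more of the genes per cell.

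**Figure D3:**
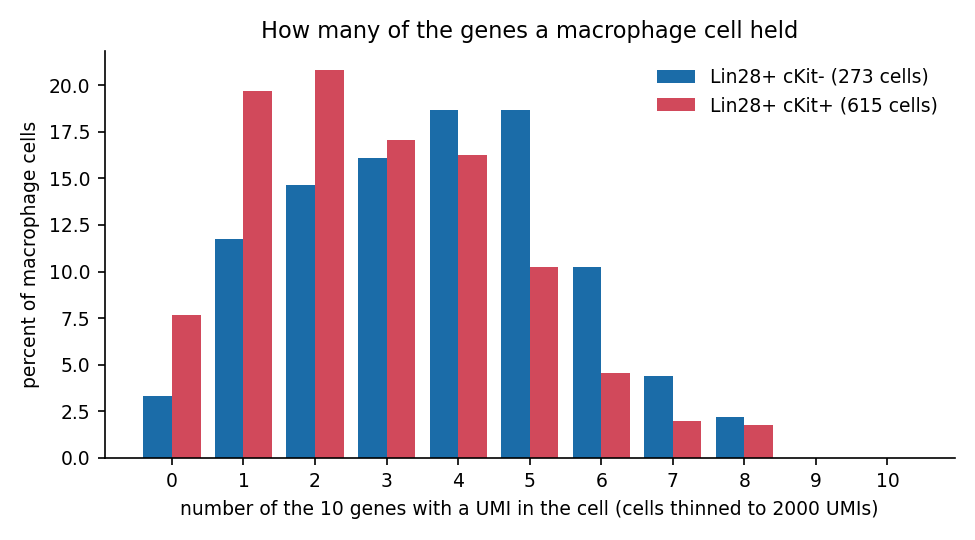
Percent of macrophage cells by the number of the 10 genes of which they held a UMI, after thinning to 2000 UMIs, in the Lin28+ cKit- (blue, 273 cells) and Lin28+ cKit+ (red, 615 cells) libraries. Blue bars are higher from 4 genes upwards and red bars from 0 to 3 genes, with medians of 4 and 3.

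The genes did not all go together. Spearman's rho was computed for the 45 pairs over macrophage cells of a library, on the deposited values, as a description: the cells share a library, and each gene also had a rho of 0.10 to 0.45 with the number of UMIs per cell. The median over pairs was 0.25 in the Lin28+ cKit- and 0.27 in the Lin28+ cKit+ library, and 13 and 14 pairs reached 0.4. Folr2, Lyve1, F13a1, Cbr2, Timd4 and Fcna held all but 1 of these pairs. Folr2 with F13a1 had the highest rho, 0.63 and 0.67, followed by Folr2 with Lyve1 (0.60 and 0.66) and Lyve1 with F13a1 (0.61 and 0.63). Cbr2 went with F13a1 (0.59 and 0.54) and Folr2 (0.52 and 0.51). Timd4 and Fcna each had a rho of 0.42 to 0.54 with Folr2, Lyve1 and F13a1. Cbr2 was less close to Timd4 (0.34 and 0.35) and to Fcna (0.31 and 0.30), below the value of Mrc1 with F13a1 (0.40 and 0.43).

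Cd163, Vsig4 and Retnla reached 0.4 with no other of the 10 genes in either library, and Mrc1 did so with F13a1 alone. Mrc1 and Retnla had a rho of 0.057 and 0.074. Cd163 and Vsig4 had 0.0058 and 0.11. The haemoglobin receptor Cd163 and the folate receptor Folr2 had 0.22 and 0.14. In counts this sparse a low rho does not show that 2 transcripts are in different cells.

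Depth changed the size and the order of these values. Over cells with at least 5000 UMIs, Folr2 with F13a1 had 0.73 and 0.67. With counts thinned to 2000 UMIs it had 0.40 and 0.37, and the median over the 45 pairs was 0.13 and 0.14. Under thinning Folr2 with Timd4 was 0.065 and 0.21, and Folr2 with Fcna was 0.042 and 0.20, where few cells keep a UMI of Timd4 or Fcna. With Lyve1, Timd4 then had 0.25 and 0.21 and Fcna 0.23 and 0.22, near the values of Cbr2 with Lyve1 (0.22 and 0.21). Retnla did not stand apart under thinning, with 0.29 and 0.30 for Fcna and 0.24 and 0.26 for Lyve1.

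**Figure D4:**
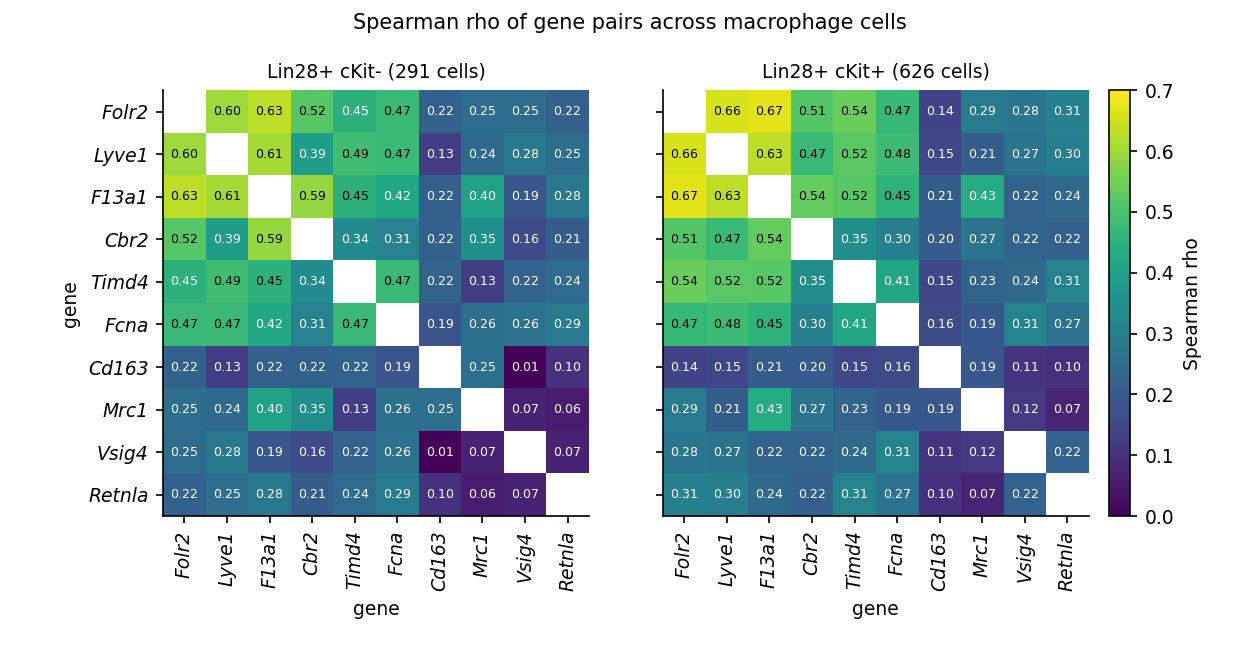
Spearman's rho of each pair of the 10 genes across macrophage cells of the Lin28+ cKit- library (left, 291 cells) and the Lin28+ cKit+ library (right, 626 cells), from dark (0) to bright (0.7). Folr2, Lyve1, F13a1, Cbr2, Timd4 and Fcna form the bright corner, up to 0.67, and Cd163, Mrc1, Vsig4 and Retnla are darker. The values are without thinning, which changes their order.

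For each gene the 3 other genes most like it were ranked by the lower of its rho values in the 2 Lin28+ libraries. For Folr2 these were Wfdc17, a small secreted protein (0.56 and 0.57), Ltc4s, the leukotriene C4 synthase (0.55 and 0.50), and Timp2, a metalloproteinase inhibitor (0.48 and 0.52). Lyve1 was most like Emp1, a membrane protein (0.52 and 0.61), Ltc4s (0.51 and 0.54) and Fgfr1, a receptor for fibroblast growth factors (0.50 and 0.49). F13a1 had Ltc4s (0.52 and 0.55), the selenium carrier Selenop (0.49 and 0.51) and Gas6 (0.47 and 0.49), which links dying cells to uptake receptors. Cbr2 had Wfdc17 (0.41 and 0.46), Ltc4s (0.40 and 0.38) and Selenop (0.41 and 0.38). Ltc4s was thus among the 3 nearest genes of Folr2, Lyve1, F13a1 and Cbr2.

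Timd4 was most like the chemokine genes Ccl6 (0.47 and 0.45) and Ccl9 (0.46 and 0.41) and Wfdc17 (0.43 and 0.43). Fcna had Fgfr1 (0.44 and 0.44), Wfdc17 (0.44 and 0.42) and Ednrb, an endothelin receptor (0.39 and 0.43). Mrc1 had a different list, led by Selenop (0.54 and 0.53), the lysosomal protease gene Ctsb (0.41 and 0.38) and the ubiquitin ligase gene Wwp1 (0.39 and 0.38). The nearest genes of the other 3 were weaker. Cd163 had the growth factor gene Igf1 (0.28 and 0.24), Selenop (0.30 and 0.24) and the chemokine gene Ccl24 (0.26 and 0.22). Vsig4 had Smpdl3a (0.30 and 0.30), the scavenger collectin Colec12 (0.27 and 0.26) and S100a6 (0.25 and 0.27). Retnla had S100a4 (0.34 and 0.31), Ednrb (0.38 and 0.29) and Fgfr1 (0.33 and 0.27).

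At the other end stood MHC class II genes. Cd74, the invariant chain, had the most negative rho with Folr2 of any ranked gene, -0.50 and -0.53, and also headed that list for Timd4, Lyve1, Vsig4, F13a1, Cbr2 and Fcna. It did not for Mrc1 and Cd163, where ribosomal protein genes such as Rps19 (-0.34 and -0.35 with Mrc1) and Rps12 (-0.19 and -0.17 with Cd163) led, nor for Retnla.

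Cells with a Folr2 UMI were then set against those without, after thinning (125 against 148 and 235 against 380 cells). The MHC class II list held H2-Aa, H2-Ab1, H2-Eb1, H2-DMa, H2-DMb1 and Cd74, with the related genes Ciita and Ctss counted among them. In the Lin28+ cKit- library 5 of 7 measured MHC class II genes were lower by at least 1.5-fold in the cells with Folr2 (median log2 ratio -1.03), against 6.22% of 1350 genes. In the Lin28+ cKit+ library 6 of 8 were lower (median -0.84), against 5.38% of 2900 genes. H2-Ab1 had 1956 CPM with and 4196 CPM without Folr2 in the first, a ratio of 0.466 (0.419 to 0.518), and 2481 and 4614 CPM in the second, a ratio of 0.538 (0.503 to 0.575). The inflammatory genes Il1b, Ccl3 and Ccl4 were lower past the fold in both libraries, 3 of 8 measured. Il1b, which encodes interleukin-1β, had ratios of 0.237 (0.161 to 0.340) and 0.208 (0.165 to 0.259). None of the inflammatory or MHC class II genes was higher past the fold in either library.

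Of the resident macrophage genes 5 of 14 in the Lin28+ cKit- and 4 of 14 in the Lin28+ cKit+ library were higher by that fold in cells with Folr2, against 8.89% and 7.76% of genes, and 0 were lower. Wfdc17 had ratios of 2.55 (2.05 to 3.17) and 2.19 (1.90 to 2.53), and Ccl24 2.27 (1.58 to 3.29) and 2.60 (2.05 to 3.30). Cx3cr1, the fractalkine receptor, did not follow, with 0.691 (0.515 to 0.922) and 0.940 (0.761 to 1.16). Of the monocyte genes 3 were measured in the Lin28+ cKit+ library, with 1 higher past the fold, 0 lower and a median log2 ratio of 0.48. They were S100a4, a calcium-binding protein, at 4.39 (3.06 to 6.41), Lyz2, lysozyme, at 1.40 (1.35 to 1.45), and Ccr2, a chemokine receptor of monocytes, at 1.02 (0.568 to 1.78). The iron and haem genes had 0 of 7 and 1 of 9 higher and 0 lower. Other scavenger and uptake receptors had 3 of 12 and 3 of 16 higher. In that list 1 and 2 were lower, against 6.22% and 5.38% of genes. Colec12 was higher in both libraries, at 2.76 (1.56 to 5.10) and 2.43 (1.56 to 3.81). The uptake receptor gene Axl was lower in both, at 0.528 (0.329 to 0.830) and 0.649 (0.466 to 0.894).

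The cells were divided in the same way by Timd4 and by Retnla. In cells with a Timd4 UMI 0 of 7 measured MHC class II genes in the Lin28+ cKit- library (44 against 229 cells) and 2 of 8 in the Lin28+ cKit+ library (75 against 540 cells) were lower past the fold, against 9.93% and 11.3% of genes. Of 14 resident macrophage genes 2 were higher in each library, against 7.56% and 10.9% of genes, and 1 was lower in the Lin28+ cKit- library, Fcrls at 0.617 (0.328 to 1.08), an interval that includes 1. Of 8 inflammatory genes 1 was lower in the Lin28+ cKit- library, Il1b at 0.279 (0.137 to 0.510). In the Lin28+ cKit+ library the same 3 genes were lower as by Folr2, Il1b at 0.497 (0.367 to 0.660), Ccl3 at 0.585 (0.503 to 0.677) and Ccl4 at 0.532 (0.490 to 0.577). In cells with a Retnla UMI (57 against 216 and 97 against 518 cells) 1 of 7 and 1 of 8 MHC class II genes were lower, against 7.78% and 9.69%, and 3 of 14 resident genes were higher in each, against 7.26% and 9.38%. Some of these cells may hold Retnla as free RNA, since 7.48% and 7.75% of endothelial cells thinned alike held a UMI of it. The part of free RNA in the ratios was not tested. No inflammatory gene passed the fold in either direction by Retnla. By this division Fcna had the highest ratio of the 9 other genes, at 5.13 (2.62 to 10.2) and 7.12 (4.06 to 12.6) times the level in cells without it, while Mrc1 had 1.04 (0.849 to 1.27) and 0.956 (0.806 to 1.13). By rho over all cells of the Lin28+ cKit+ library, Retnla was closer to Timd4 and Folr2 (0.31 each) and Lyve1 (0.30) than to Fcna (0.27). In the Lin28+ cKit- library it was closer to Fcna (0.29) than to Lyve1 (0.25), Timd4 (0.24) and Folr2 (0.22). With counts thinned to 2000 UMIs Fcna was closer than these 3 genes in both libraries, at 0.29 and 0.30, against 0.24 and 0.26 for Lyve1.

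The rest of the 10 genes followed Folr2 unevenly. F13a1 was higher in cells with Folr2, with ratios of 2.11 (1.75 to 2.54) and 2.19 (1.90 to 2.53), and so was Lyve1, with 2.22 (1.65 to 3.002) and 2.68 (2.08 to 3.46). Mrc1 had 1.25 (1.06 to 1.48) and 1.32 (1.17 to 1.49). Retnla had 2.75 (2.19 to 3.46) and 9.51 (7.18 to 12.8), and Fcna 1.31 (0.670 to 2.57) and 5.93 (3.08 to 12.3). The difference between the libraries was not tested. In cells without Folr2, Retnla had 378 CPM in the Lin28+ cKit- and 76.3 CPM in the Lin28+ cKit+ library, against 1040 and 726 CPM in cells with Folr2. Most Retnla UMIs lay in few cells, so its ratios can turn on a few of them.

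The lower levels of the Lin28+ cKit+ library were seen on both sides of that divide. The divide does not hold the Folr2 level constant, because thinning removes UMIs. Folr2 was found in 75.3% and 62.1% of macrophage cells without thinning and in 45.8% and 38.2% with it. Cells without a Folr2 UMI thus include cells that lost it, and their part in the ratios was not tested. Among cells with a Folr2 UMI 8 of the 9 other genes were below 1 and 2 were past the 1.5-fold threshold, with a median log2 ratio of -0.48. Over the 1775 genes with at least 50 UMIs there, 52.8% were below 1, 7.32% were lower and 5.13% higher past the threshold, and the median was -0.03. Among cells without one 8 of 9 were below 1 and 6 past it, with a median of -0.99. Over 2494 genes 56.4% were below 1, 8.62% were lower and 5.81% higher, and the median was -0.06. Of the 9 genes 8 and 7 reached that minimum of UMIs. Vsig4 did not on either side, and Fcna did not in cells without Folr2. With Folr2 the 2 genes past the threshold were Vsig4, at 0.348 from 26 and 17 UMIs, and Cbr2, at 0.584. Cbr2 alone of the 8 can thus be set beside the 7.32%. Without Folr2 the 6 genes past it included Fcna, at 0.246 from 19 and 12 UMIs. The exceptions were Fcna with Folr2, at 1.11 (0.649 to 1.97), and Vsig4 without it, at 1.28 (0.532 to 3.53). The largest difference was for Retnla in cells without Folr2, at 0.202 (0.144 to 0.279). It rested on 112 UMIs in 15.5% of the Lin28+ cKit- and 58 in 9.74% of the Lin28+ cKit+ cells without Folr2. The interval does not cover the spread between cells.

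Retnla was packed into few cells. In the Lin28+ cKit- library the 30 cells with the most Retnla UMIs, about 10% of macrophage cells, held 89.9% of them, and 9 cells held 50%. In the Lin28+ cKit+ library the top 63 cells held 92.4%, and 13 cells held 50%. A single cell reached 381 and 255 UMIs. Mrc1 lay at the other extreme, with 31.8% and 28.6% of its UMIs in the top 10% of cells. Low counts alone raise this share, so Vsig4 (94.3% and 99.3%, from 334 and 283 UMIs) is best read beside Timd4 (43.0% and 51.9%, from 509 and 486) and Fcna (68.3% and 77.7%, from 445 and 364). For Vsig4, 7 and 12 cells held 50% of the UMIs.

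**Figure D5:**
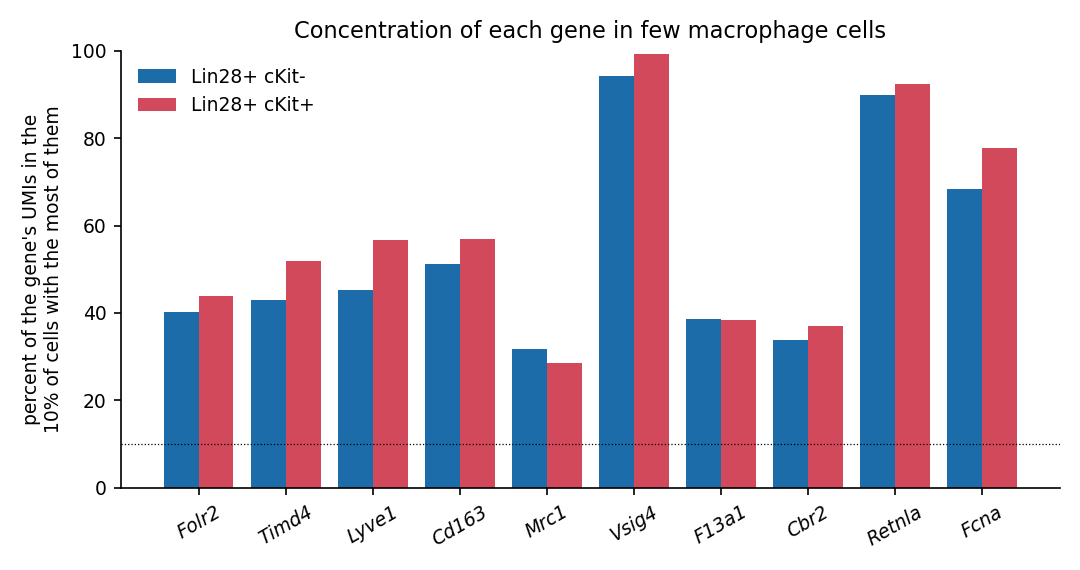
Percent of each gene's UMIs that lay in the 10% of macrophage cells with the most of them, in the Lin28+ cKit- (blue) and Lin28+ cKit+ (red) libraries. The dotted line is the share under equal spread, 10%. Vsig4 and Retnla stand highest, at 94.3% and 99.3% and at 89.9% and 92.4%, and Mrc1 lowest, at 31.8% and 28.6%.

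Cells rich in Retnla or Vsig4 were described further, with thresholds set after the values were seen. Cells with at least 20 Retnla UMIs (32 and 38) had a median of 24617 and 15764 UMIs per cell, against 12954 and 9722 in the other macrophage cells. Their leading other genes by the smaller ratio of both libraries included Tgfb2, a transforming growth factor, at 8.20 (3.41 to 21.1) and 12.3 (6.48 to 23.8), and Ednrb, at 3.75 (2.99 to 4.70) and 4.52 (3.50 to 5.81). Hal, histidine ammonia-lyase, had 6.10 (3.63 to 10.3) and 10.9 (7.09 to 16.7). Of the 10 genes, Fcna was 2.77 (2.27 to 3.37) and 4.75 (3.78 to 5.93) times as high in them and Lyve1 2.43 (2.20 to 2.69) and 2.79 (2.49 to 3.12), while Mrc1 was nearly level at 1.12 (1.05 to 1.20) and 1.08 (0.996 to 1.18). Retnla-rich cells were thus richer in the Lyve1 and Fcna transcripts although rho between the genes over all cells was 0.25 to 0.30.

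Cells with at least 2 Vsig4 UMIs (33 and 47) held 96.1% and 93.6% of the gene's UMIs. Fcna was 2.77 (2.26 to 3.39) and 2.95 (2.32 to 3.73) times as high in them as in other macrophage cells. Cd207, the C-type lectin langerin, had 61 of its 63 UMIs there in the Lin28+ cKit- library, in 4 cells, and 27 of 35 in the Lin28+ cKit+ library, in 2 cells. Cxcl13, a B-cell chemokine, had 89 of 93 UMIs there in 4 cells and 36 of 80 in 3 cells. Both genes rest on a handful of cells.

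Outside macrophages, Lyve1 belonged to lymphatic endothelium. Cells with UMIs of at least 3 of Prox1, Mmrn1, Flt4, Ccl21a and Reln numbered 15, 16 and 13 in the Lin28- cKit-, Lin28+ cKit- and Lin28+ cKit+ libraries. Lyve1 had 2534 CPM there (2168 to 2945) in the first library. It had 2320 CPM (2055 to 2610) in the second and 1909 CPM (1654 to 2192) in the third, and was found in 14, 14 and 13 of the cells. Its level was therefore several times that of macrophage cells, in which it had 389 and 258 CPM in the Lin28+ libraries. Mrc1 was also present, with 149, 117 and 123 CPM, while Timd4 and Vsig4 had 0 UMIs in all 3. Free macrophage RNA was measurable in these cells of the Lin28+ libraries, where C1qa had 109 and 123 CPM, but C1qa had 0 UMIs in those of the Lin28- cKit- library.

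A second, smaller site of Lyve1 was found after the values were seen, among other endothelial cells with a UMI of Npr3, a natriuretic peptide receptor that marks endocardium. Lyve1 had 103 CPM (79.2 to 132) in the 80 such cells of the Lin28- cKit- library and 6.56 CPM (4.06 to 10.0) in the 745 others. In the Lin28+ cKit+ library the values were 66.3 CPM (42.9 to 97.9) in 40 cells and 7.57 CPM (4.33 to 12.3) in 346. In the Lin28+ cKit- library they were 47.3 CPM (22.7 to 87.0) in 19 cells, all from 1 cell, and 8.45 CPM (4.62 to 14.2) in 199.

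The 13 macrophage cells of the Lin28- cKit- library, too few for a comparison, carried few of the genes. Fibroblast markers summed to 804 CPM in them, against 11.6 and 6.75 in the Lin28+ macrophage cells, and 1 of the 13 met the fibroblast rule; their part in these values was not tested. Cd163, Vsig4 and Fcna have no line in that table, which lists 203 genes with UMIs in 1 or 2 cells against 556 in 3, so genes found in very few cells may be left out of it. Mrc1 had 33 UMIs in 7 of the 13 cells, F13a1 17 UMIs in 4 and Cbr2 6 UMIs in 3. Folr2 and Lyve1 had 1 UMI each, both in the shared-barcode cell, and 0 in the other 12. After thinning to 2000 UMIs the remaining 12 cells held a median of 0 of the 10 genes and at most 2. Cd74 was high in these 13 cells, at 24163 CPM, against 9775 in the Lin28+ cKit- and 12012 in the Lin28+ cKit+ macrophage cells.

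Retnla and Timd4 in the Lin28- cKit- library came from narrow sources. One macrophage cell of 22758 UMIs held 329 of the library's 346 Retnla UMIs and all 4 of the Timd4 UMIs of the 13 cells, with 0 of Folr2, Mrc1, F13a1 and Cbr2. The same cell had 0 Cd74 UMIs, 1225 of Lyz2 (lysozyme), 162 of Prg4 (lubricin) and 160 of Fn1 (fibronectin). It also had 24 UMIs of the fibroblast marker Dcn, against at most 5 in any other of the 13 cells. Whether it was a mixed droplet was not tested. Of the 26 Timd4 UMIs of that library 21 lay in 9 of 20 cells that held a UMI of Xcr1, a chemokine receptor of cross-presenting dendritic cells, and none of C1q, a set chosen after the values were seen. Cd74 stood at 18866 CPM in those 20 cells, and 10 of them had a UMI of Clec9a. The Lin28+ libraries had 0 such cells. Timd4 UMIs were thus found mainly in C1q-bearing cells of the Lin28+ libraries, with 9 and 20 UMIs outside their macrophages, and mainly in cells without C1q in the Lin28- cKit- library.

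Related gene lists differed less than the 10 genes between the Lin28+ libraries. Of 21 measured other scavenger and uptake receptors 1 was lower past the fold and 0 higher, near the 5.10% and 2.12% of all genes, with a median log2 ratio of -0.22. The lower one was Cd209g, a C-type lectin, at 19.7 and 8.72 CPM, a ratio of 0.443 (0.316 to 0.620), and Colec12 had 0.730 (0.649 to 0.823). Of 5 measured opsonins and bridging factors 2 were lower and 0 higher, with a median of -0.45: the complement gene C4b at 0.559 (0.430 to 0.725) and the protein S gene Pros1 at 0.618 (0.510 to 0.749). Gas6 had 0.796 (0.748 to 0.848).

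Of 15 resident macrophage genes 1 was lower past the fold, Cd38 at 0.467 (0.311 to 0.697), and 0 higher, near the 5.10% and 2.12% of all genes, with a median of -0.14. Igf1 had 0.692 (0.610 to 0.786) and the transcription factor gene Maf 0.700 (0.668 to 0.733). Of 10 iron and haem genes 1 was lower, the transferrin receptor gene Tfrc at 0.496 (0.355 to 0.690), with a median of -0.12, again few genes beside 5.10% of all. Hmox1, haem oxygenase, had 0.836 (0.802 to 0.872). Of 5 measured monocyte genes Fn1 was higher, at 1.97 and 6.61 CPM, a ratio of 3.36 (1.63 to 7.80), and Ifitm6 lower, at 0.624 (0.372 to 1.05), an interval that includes 1.

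The inflammatory and MHC class II lists had medians above that of all genes, -0.08, in the Lin28+ cKit+ library. Of 10 inflammatory genes 2 were higher past the fold and 0 lower, beside 2.12% and 5.10% of all genes, with a median log2 ratio of 0.20: the chemokine gene Ccl4 at 4442 and 7051 CPM, a ratio of 1.59 (1.56 to 1.61), and Il1b at 341 and 518 CPM, a ratio of 1.52 (1.43 to 1.61). Of 8 MHC class II genes none passed the fold, with a median of 0.30. H2-DMb1, a peptide-loading chaperone, had the largest ratio, 1.42 (1.28 to 1.57). These lists and the 10 genes were read in the same cells, so their values are not independent of each other.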

How the data were processed

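The authors deposited 1 table per library with genes in lines, cells in columns and natural log values, the ln of 1 plus a gene's UMIs per 10000 of its cell, a form found from the values. Cell Ranger (no version given), Seurat 4.0.2 and build mm10 are named per the submitters' processing notes. How cells were filtered is not given in the sources used here. Whole UMIs were recovered by undoing the log and dividing by each cell's smallest value, which gave whole numbers for 100% of values within 0.01. The design had assumed counts, and its methods were run on the recovered UMIs.

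The 10 genes, the gene lists and the marker rules were chosen with earlier results of these data known. All 10 genes are named. For likeness, genes needed a UMI in 10% of macrophage cells of both Lin28+ libraries, and of each list the 2 to 4 measured members with the largest ratio between those libraries are named, with others named beside a result they bear on. UMIs were summed over macrophage cells of a library and divided by their total (CPM), with exact Poisson intervals, exact conditional binomial intervals for ratios and Clopper-Pearson intervals for shares (95%). A gene was measured when the pair held 50 or more of its UMIs. No doublet caller was run, and cells meeting the endothelial or fibroblast rule were left out as an alternative. Cells of other classes met 4 of 5 markers of that class and no other class (lymphatic, 3 of 5). Python 3.11.15, numpy 2.4.6, scipy 1.17.1, pandas 2.3.3 and matplotlib 3.10.9 were used, and the ratio and rank code was tested on simulated data. UMIs from 1 library per group give no replicate error. The alternatives changed the macrophage rule, the scaling, the thinning, the depth and single cells with many UMIs.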

Additional observations from a re-analysis of the deposited data

How the results depend on the processing

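No paired analysis was possible because each group has 1 library. The ratios of the 10 genes between the Lin28+ libraries were recomputed under 11 alternatives, 3 of them (without shared barcodes and the 2 deeper depth bands) chosen after seeing the data. Of the 110 values 108 were below 1. The 2 above 1 were both in cells with 5000 to 10000 UMIs, Retnla at 3.75 and Cd163 at 1.03, where the median log2 ratio was -0.22 and 2 genes were past the fold. The cause was not tested. In cells under 5000 UMIs, outside this tally, Timd4 was at 2.24. Median-of-ratios scaling shifted the median of all genes, at -0.08 (log2), to 0 and left all 10 genes below 1, but 6 and not 8 past the fold, without Lyve1 at 0.702 and F13a1 at 0.680. Cells with at least 10000 UMIs also gave 6.

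Shares of cells and genes per cell follow the depth they are read at. The median share over the 10 genes was 29.9% in the Lin28+ cKit- and 19.7% in the Lin28+ cKit+ library at 2000 UMIs, 57.2% and 42.1% with no thinning, 20.5% and 13.7% at 1000 UMIs and 44.5% and 33.5% at 5000 UMIs. At 1000 UMIs the median number of genes per cell in the Lin28+ cKit- library was 2. With counts thinned to 2000 UMIs the median rho was 0.134 and 0.139, against 0.255 and 0.271, and Timd4 with Mrc1 in the Lin28+ cKit+ library turned from 0.23 to -0.014. In all 7 of the 90 values were then negative, down to -0.042. Depth limits Vsig4, Fcna and Timd4 most, since few thinned cells keep a UMI of them.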
